A study of Sparassis latifolia with 15 samples.

Results

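Gglean012354 is the gene that the study lists as U17 and describes as dehydrogenase citC, 1 of 11118 gene IDs found in both deposited RNA-seq tables of the cauliflower mushroom Sparassis latifolia. The study chose U17 among 17 genes with more RNA and a gained open chromatin peak both in mycelium after light and in primordia, each against dark mycelium. RNA-seq and ATAC-seq, in which a transposase inserts adapters into open chromatin, were performed on strain SP-C in 3 groups. These were mycelium grown in the dark (D, labelled day 28), such mycelium given 1 h of white LED light (L, labelled day 30 although the methods describe only the hour of light), and primordia that had formed in about 2 further weeks of daily light (P, labelled day 42). All groups were cultures of a single strain on pine sawdust substrate. Light, age and tissue cannot be told apart in P, and by the labelled days neither can light and age in L. The RNA-seq groups had 3 biological replicates each and the ATAC-seq groups had 2.

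The name citC comes from the citrinin gene cluster of Monascus, where the enzyme oxidises an alcohol of the polyketide precursor to an aldehyde. That enzyme belongs to the glucose-methanol-choline (GMC) oxidoreductases, flavin enzymes that oxidise alcohols and sugars. In wood-decaying fungi the same family holds aryl-alcohol oxidases and methanol oxidases, which release hydrogen peroxide. Such a name is given by sequence similarity, and what the S. latifolia protein oxidises was not measured here.

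Between 20798173 and 27706995 counts per library fell in the genes shared by both tables. Only the 30 genes of the study's list and the reference gene GAPDH have a description, so the labelled tissues could not be checked against marker genes outside that list. Within it, U10, which is named after the fruiting body hydrophobin SC4 of Schizophyllum commune, ranged from 35.2 to 231 CPM among D libraries, from 368 to 5105 CPM among L libraries and from 1673 to 14884 CPM among P libraries. U10 was itself chosen on these libraries. CPM are a gene's counts per 1000000 counts of the library, after scaling of the totals by the trimmed mean of M values (TMM).

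The RNA level of citC differed between the groups in the order D, L, P. The D libraries held 95, 309 and 231 counts of citC, the L libraries 861, 2458 and 1433, and the P libraries 20774, 11038 and 11870. As CPM, D replicates 1 to 3 stood at 4.67, 11.4 and 9.52, L replicates at 30.8, 87.2 and 56.9, and P replicates at 996, 464 and 504. Every library of L lay above every library of D, and every library of P lay above every library of L. The lowest P library stood 5.32-fold above the highest L library, and the lowest L library stood 2.69-fold above the highest D library. Group means (± SD, n = 3 each) were 8.54 ± 3.48 CPM for D, 58.3 ± 28.2 CPM for L and 655 ± 296 CPM for P. Whether each cell held more citC RNA or more cells expressed the gene cannot be told apart in such bulk samples. The gene was selected for being higher in L and in P than in D, so these levels are a description without a test. Over the 10701 genes tested, all P libraries lay above all D libraries for 12.5% of genes, all L above all D for 9.56%, all P above all L for 6.75%, and the full order of D below L below P held for 1.19% (127 genes).

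**Figure D1:**
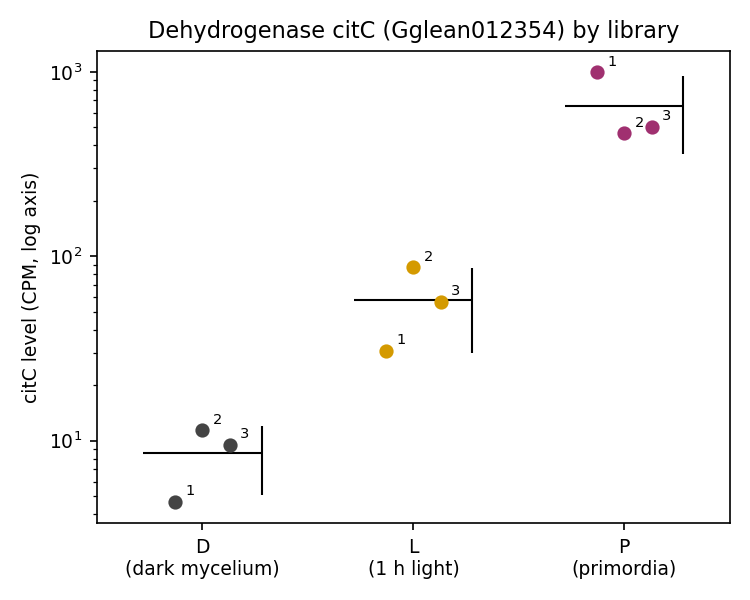
Level of citC in CPM (log axis) in each RNA-seq library of D, L and P. Points are libraries numbered by replicate, the horizontal line is the group mean and the vertical line is ± 1 SD (n = 3). The 3 P libraries lie between 464 and 996 CPM, above the L libraries at 30.8 to 87.2 CPM and the D libraries at 4.67 to 11.4 CPM.

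Within groups the libraries also varied. The highest library exceeded the lowest by 2.15-fold in P, 2.83-fold in L and 2.45-fold in D. Replicate 1 was the highest library of P but the lowest of L and of D. Without P replicate 1 the mean of P was 484 CPM, and without L replicate 2 the mean of L was 43.8 CPM. As a fitted log2 fold change citC stood at 6.27 in P vs. D and at 2.77 in L vs. D, both given without a test because these contrasts chose the gene and share the D libraries. In P vs. D edgeR called 1.33% of genes higher and 1.97% lower in P, and in L vs. D it called 0% in either direction. The study, which used DESeq2 with the same limits, reported far more genes higher and lower in both contrasts than edgeR called here. By size, the fold changes of citC were the 8th highest of 10606 genes in P vs. D and the 35th highest of 10627 genes in L vs. D.

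GAPDH, the glycolytic enzyme that the study used as its qRT-PCR reference, gives a scale that does not depend on library totals. By that qRT-PCR the study reports patterns similar to its sequencing for the listed genes, with some exceptions. U1, U16 and D9 are among the exceptions and citC is not. GAPDH itself stood at 3361, 2506 and 2069 CPM in D replicates 1 to 3. In L replicates it stood at 2864, 821 and 1819 CPM, and in P replicates at 4374, 647 and 2250 CPM. It was therefore lowest in replicate 2 of both L and P. Per 100 GAPDH counts the D libraries held 0.139, 0.456 and 0.460 counts of citC, the L libraries 1.07, 10.6 and 3.13, and the P libraries 22.8, 71.7 and 22.4. The order of the groups was the same as in CPM, with no overlap. The order of the primordia libraries was not, since P replicate 2 was the lowest in CPM and the highest per GAPDH count. The spread between libraries of P was 3.20-fold on this scale, and that of L was 9.88-fold.

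**Figure D2:**
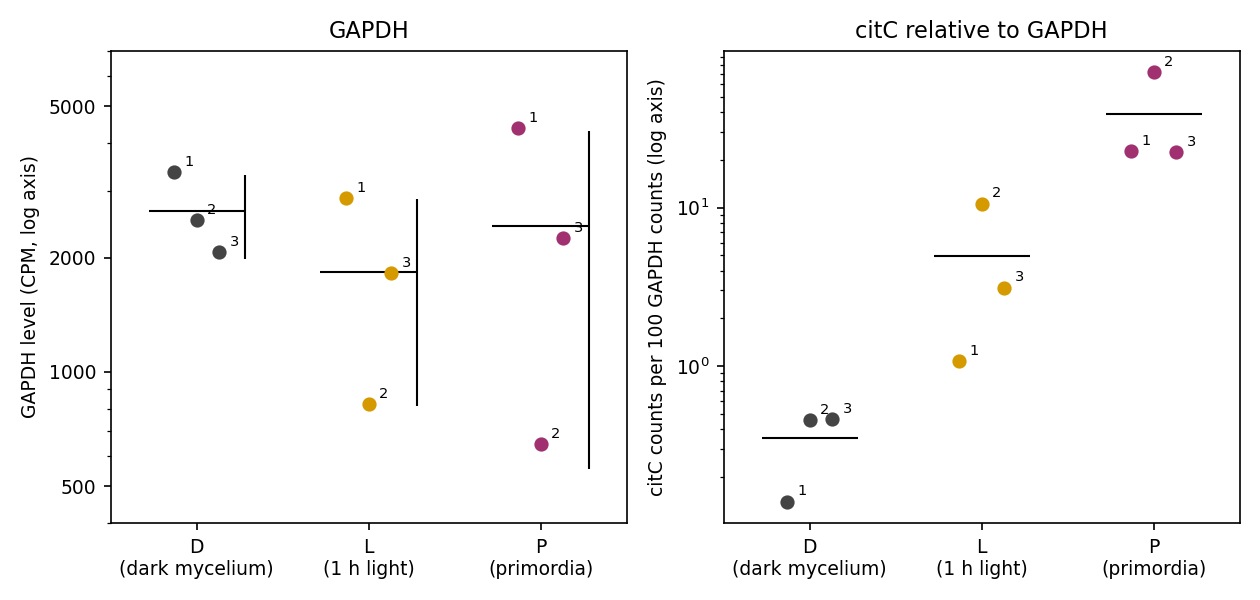
Level of GAPDH in CPM (left) and counts of citC per 100 counts of GAPDH (right) in each library, both on log axes. Points are numbered by replicate, horizontal lines are group means and vertical lines in the left panel are ± 1 SD (n = 3). GAPDH stands at 821 CPM in L replicate 2 and 647 CPM in P replicate 2, and the ratio stays in the order D, L, P without overlap.

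P vs. L was not one of the contrasts by which the gene was selected, although all of its libraries took part in them, and the gene was picked for description with its levels known. The p-values of citC given here are therefore not independent of its selection. The mean level of citC was 655 CPM in P and 58.3 CPM in L, a ratio of 11.2. In a fit of all 9 libraries the log2 fold change of P over L was 3.49 (SE 0.52), with an adjusted p = 0.0612 from the quasi-likelihood test of edgeR with Benjamini-Hochberg adjustment over all genes. This missed the threshold of 0.05, with all 3 P libraries above all 3 L libraries. By size it ranked 19th from the top, and by p it ranked 14th. Few genes passed the test in this comparison, with 2 called higher in P (0.0187%) and 2 called lower in P (0.0187%). In a fit of L and P alone with replicate number as a block, no gene was called in either direction (0 higher and 0 lower) and citC had an adjusted p = 0.168. DESeq2, which called 153 genes higher (1.43%) and 168 lower (1.57%) in P, called citC (adjusted p = 2.97e-09). In edgeR citC was also called without P replicate 2 (adjusted p = 0.0473), in a fit that called 40 genes higher and 12 lower. Over all alternatives the adjusted p of citC ran from 2.97e-09 to 0.416 while its log2 fold change stayed between 3.01 and 4.10.

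Among the U genes, citC had the highest fold change of P over L. All of them were chosen, like citC, for being higher in both L and P than in D, on these same libraries. Values of the list set beside those of all genes are therefore a description. The 17 U genes ranged from a log2 fold change of 0.12 for U6, a pre-mRNA-splicing factor, to 3.49 for citC, with a median of 1.23 against 0.02 over all genes tested. Next below citC was U12, which is described as a protein with the N-terminal domain of LON peptidase and a RING finger, a domain common in ubiquitin ligases. U12 had 2684, 109 and 907 CPM in P and 99.2, 210 and 119 CPM in L, so its groups overlapped (log2 fold change 3.11, SE 0.90, edgeR adjusted p = 0.287). Besides citC, U16, cysteine proteinase 1, was the only U gene whose P and L libraries did not overlap, with 20.6, 14.96 and 57.8 CPM in P and 3.18, 14.3 and 10.4 CPM in L. That makes 2 of 17 genes, or 1 of 16 without citC, where 6.75% of all genes had all P libraries above all L libraries. No U gene was called in P vs. L by edgeR (0 of 17), whereas 7 were higher at an unadjusted p under 0.05 (589 of all genes, or 5.5%) and DESeq2 called 2, citC and U12 (1.43% of all genes). Without P replicate 2, edgeR called 2 of the U genes higher, in a fit that called 40 genes higher among all genes.

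The oxidation and reduction enzymes of the study's list had fitted fold changes of both signs in P vs. L. The study had chosen U1 and citC for being higher in L and in P than in D. It had chosen D2, D3, D4, D9, D10 and D12 for being lower. The signs are therefore no result about such enzymes as a class. The list holds 9 genes with GAPDH, of which edgeR called 0 higher and 0 lower in P vs. L. At an unadjusted p under 0.05, 1 was higher in P (citC) and 2 were lower, and DESeq2 called the same 3. Over all genes 5.5% were higher and 5% lower at that unadjusted p, and DESeq2 called 1.43% higher and 1.57% lower. The median log2 fold change was -0.54 with citC and -0.64 without it, against 0.02 over all genes tested.
The gene nearest to citC by name is U1, dehydrogenase patE, named after the last enzyme of patulin synthesis in Penicillium expansum, which is also a GMC oxidoreductase. U1 had 82.3, 139 and 179 CPM in P, against 93.9, 85.0 and 90.4 CPM in L and 46.6, 87.5 and 32.1 CPM in D. Its libraries overlapped between all groups, and its log2 fold change of P over L was 0.57 (SE 0.38, edgeR adjusted p = 0.656).
The enzymes that DESeq2 called lower in P were D2, a delta(12) desaturase that makes fatty acids less saturated, and D10, lactate 2-monooxygenase, which oxidises lactate. D2 had 12.2, 9.33 and 8.75 CPM in P and 122, 14.97 and 51.0 CPM in L (log2 fold change -2.63, SE 0.61, edgeR adjusted p = 0.217). D10 had 6.33, 9.37 and 15.5 CPM in P and 25.5, 22.7 and 23.2 CPM in L (log2 fold change -1.19, SE 0.31, edgeR adjusted p = 0.266). Neither gene overlapped between P and L, where 6.01% of all genes had all P libraries below all L libraries. D3, glycine dehydrogenase of the glycine cleavage system, D4, phenol 2-monooxygenase, D9, an aldo-keto reductase, and D12, O-methylsterigmatocystin oxidoreductase, overlapped between P and L, as did GAPDH, and their log2 fold changes ran from -1.32 for D9 to 0.40 for GAPDH (adjusted p 0.676 to 0.928 from edgeR).

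**Figure D3:**
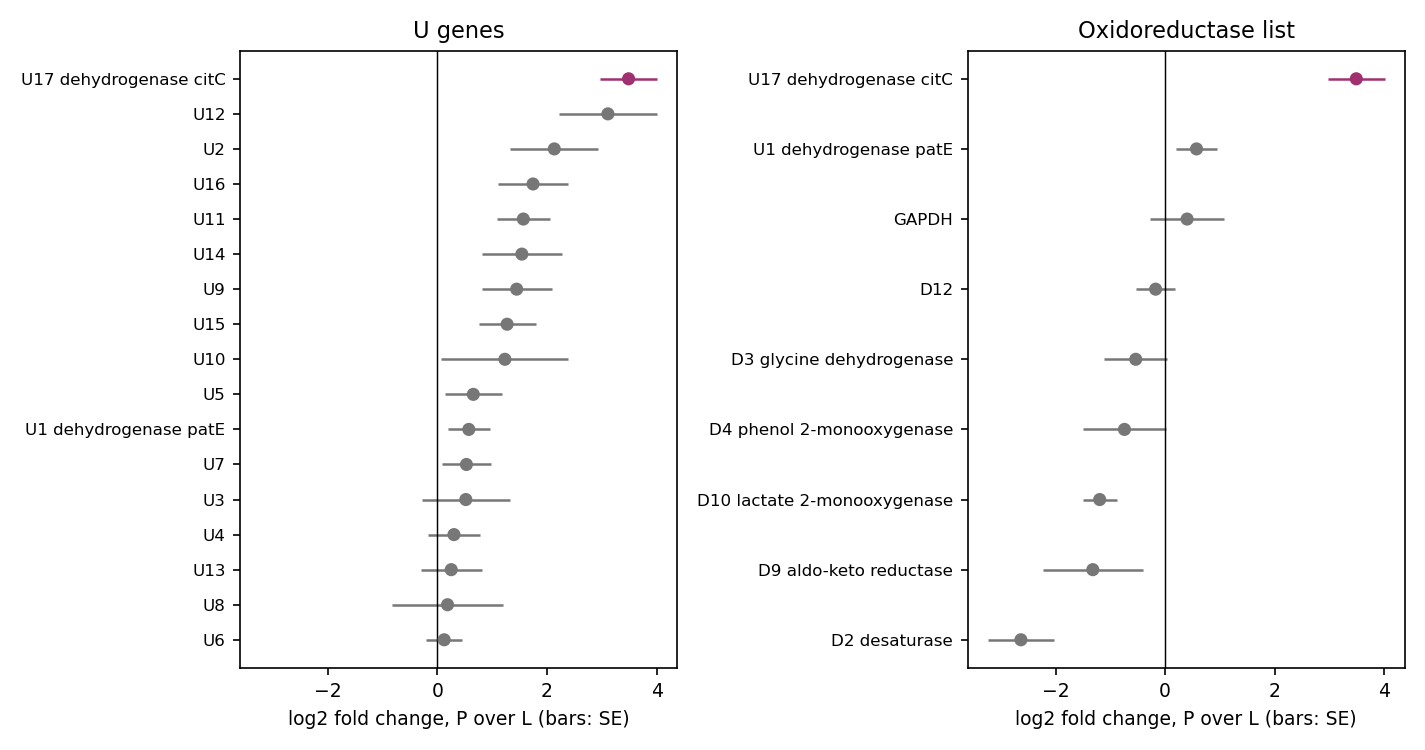
Log2 fold change of P over L for the 17 U genes (left) and for the oxidoreductase list with GAPDH (right), from edgeR's fit of all 9 libraries. Points are fitted values and bars are ± 1 SE derived from the test. The value of citC, 3.49, is the highest in both panels, and that of D2, -2.63, is the lowest.

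Genes with a pattern like that of citC were sought among the 7916 genes that averaged 10 CPM or more, by Pearson's r of log2 CPM over the 9 libraries. The r was at least 0.9 for 102 genes and at most -0.9 for 146 genes. These values describe likeness only, since libraries of a group share their condition, and the files pair no description with the IDs below. Most alike was Gglean007136 (r = 0.985), whose D libraries had 3.49, 6.10 and 6.10 CPM, whose L libraries had 12.1, 45.0 and 20.5 CPM, and whose P libraries had 801, 141 and 250 CPM. Like citC it was highest in P replicate 1 and L replicate 2. Next was Gglean010415 (r = 0.981), which spanned less, with 14.2 to 20.7 CPM among D libraries, 24.9 to 29.2 CPM among L libraries and 61.4 to 78.8 CPM among P libraries.
The most opposite patterns were those of Gglean000663 and Gglean005079. Gglean000663 (r = -0.995) lay between 961 and 1086 CPM among D libraries, 706 and 788 CPM among L libraries, and 494 and 527 CPM among P libraries. Gglean005079 (r = -0.994) lay between 96.6 and 230 CPM among D libraries, 13.6 and 54.5 CPM among L libraries, and 0.911 and 2.77 CPM among P libraries. Both kept their groups apart, and both fell short of a call in P vs. L by edgeR (adjusted p = 0.437 and 0.102), whereas DESeq2 called both lower in P (adjusted p = 0.00487 and 5.74e-08). Gglean007136 and Gglean010415 were likewise not called by edgeR (adjusted p = 0.122 and 0.0612) and called higher in P by DESeq2 (adjusted p = 8.52e-07 and 2.75e-07).

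The ID next below citC in number, Gglean012353, was looked at because fungal pathway genes often lie side by side, and is named after its values were seen. Its D libraries had 14.4, 11.1 and 31.3 CPM, its L libraries 67.6, 420 and 226 CPM, and its P libraries 345, 718 and 480 CPM. All libraries of L and of P lay above all those of D, as for citC, whereas P and L overlapped (log2 fold change of P over L 1.11, SE 0.63, edgeR adjusted p = 0.589). Gglean012353 was lowest in the P library in which citC was highest, replicate 1. Per count of Gglean012353 there were 2.89, 0.646 and 1.05 counts of citC in P, 0.455, 0.208 and 0.252 in L, and 0.325, 1.03 and 0.304 in D. The ratio was higher in every P library than in any L library, and that of D overlapped both. The other 10 IDs within 10 numbers of citC that passed the filter had log2 fold changes between -1.73 and 0.57 in P vs. L, with 0 called by edgeR. IDs are the only guide to position for these genes in the tables, so whether Gglean012353 and citC are neighbours on a contig was not determined. The counting may also not have used the strand, in which case reads of overlapping genes cannot be told apart.

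**Figure D4:**
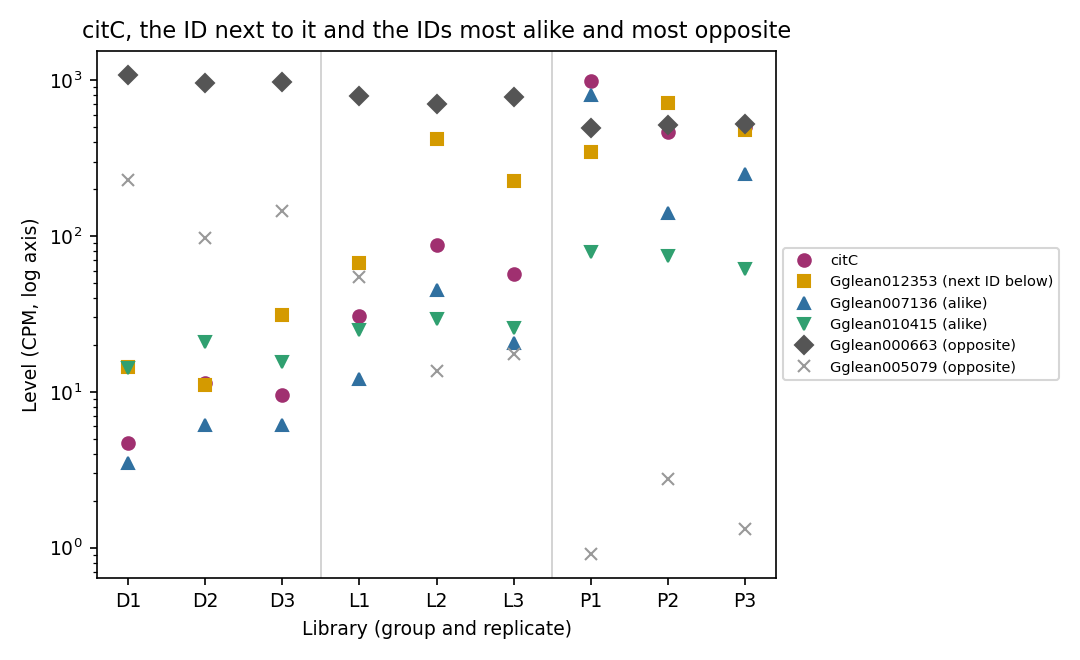
Level in CPM (log axis) of citC, of Gglean012353 and of the IDs most alike (Gglean007136, Gglean010415) and most opposite (Gglean000663, Gglean005079) in each of the 9 libraries. Points are libraries, ordered by group and replicate number. Gglean012353 reaches 420 CPM in L replicate 2, where citC stands at 87.2 CPM, and citC reaches 996 CPM in P replicate 1, where Gglean012353 stands at 345 CPM.

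Open chromatin near citC was read from the authors' lists of gained and lost peaks, which hold a position and a score for each peak and no value per library. The peak that the study lists for citC lies on contig 10 of the SP-C assembly. It is a gained peak of L vs. D and runs from 874699 to 875183 (485 bp, score 2.52). The gained peak of P vs. D that overlaps it runs from 874380 to 875226 (847 bp, score 27.8). Which gained peak of P vs. D the study tied to the gene is not stated. What the score measures is nowhere stated in the sources used here, so scores are compared only within a list. The peak of L vs. D lies wholly inside that of P vs. D and covers 57.3% of it. In L vs. D 17.1% of the 234 gained peaks had a lower score, and in P vs. D 46.0% of the 1768 gained peaks had a lower score. Of all gained peaks of L vs. D, 32.9% overlapped a gained peak of P vs. D, and 11.97% lay wholly inside one. Among the 17 U genes, 16 had a gained peak of L vs. D that overlapped a gained peak of P vs. D. A gained peak in both contrasts was part of their selection, so the overlap at citC is no trait of its own.

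The annotation of the study puts the peak of L vs. D upstream of the start of citC, at the end of a transcript, and gives no strand. Gained peaks of P vs. D lie on each side of it, one from 871837 to 873001 (score 189, 1697 bp away) and one from 876721 to 878681 (score 56.0, 1537 bp away). If the distance to the start site in that annotation is laid off on either strand, the start of citC falls inside a gained flanking peak of P vs. D in both cases. None of these flanking regions is in the lists of L vs. D.
Within 100 kb of the centre of the peak, and leaving it out, P vs. D had 9 gained and 7 lost peaks, and L vs. D had 0 gained and 0 lost peaks. The medians around all gained peaks of L vs. D were 8 gained and 6 lost peaks of P vs. D, and 14.5% of these peaks likewise had no other peak of L vs. D within 100 kb. The nearest lost peaks of P vs. D were 3 peaks from 11494 to 15382 bp on the side of lower coordinates, with scores from 2.51 to 3.70, and a peak from 889610 to 891303 (14426 bp away, score 386). The last peak of any list on contig 10 ends at 907552, 32.6 kb from the citC peak, so the window may reach beyond the contig on that side. Of the peaks of P vs. D on contig 10, 61.5% were gained, against 48.0% in the whole series.

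**Figure D5:**
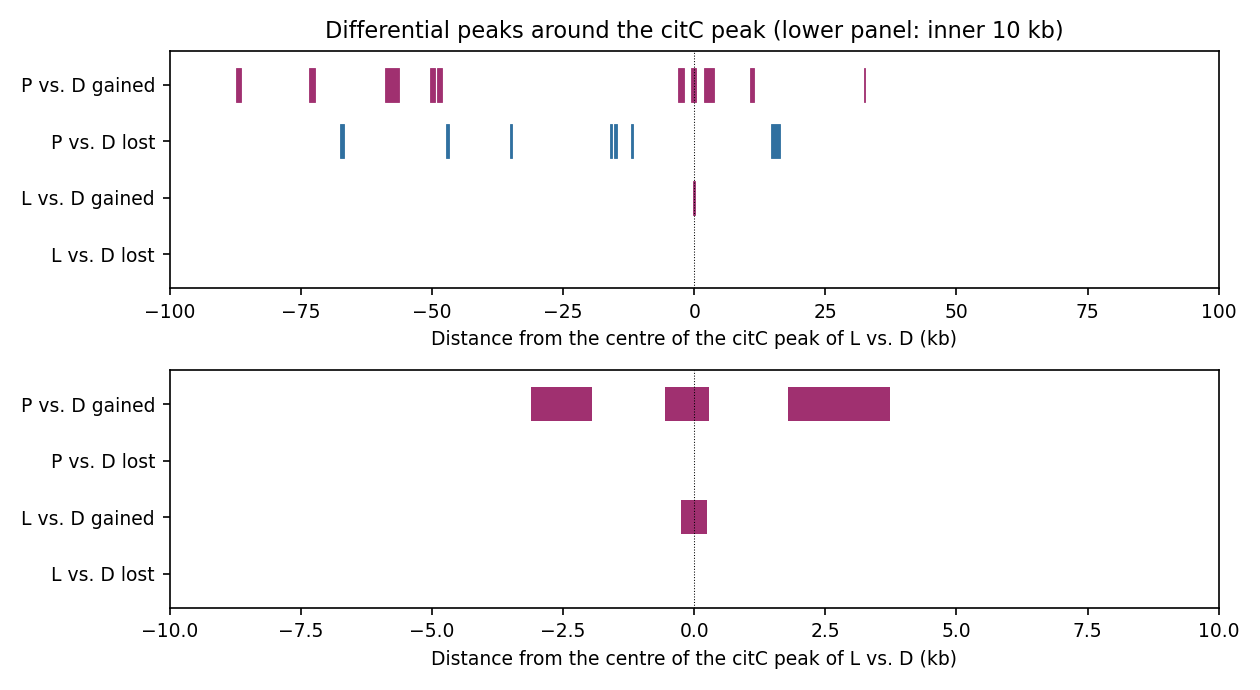
Gained and lost peaks of P vs. D and L vs. D around the centre of the citC peak of L vs. D, by distance in kb (upper panel 100 kb, lower panel 10 kb to each side). Each box is a peak drawn to scale, on its own row per list. The citC peak of L vs. D stands between gained peaks of P vs. D that lie 1697 and 1537 bp away. It is the only peak of L vs. D in the window.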

How the data were processed

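RNA-seq reads were filtered by cutadapt, mapped by STAR against the SP-C assembly and assigned to genes by HTSeq 0.6.1, and the raw counts so deposited by the authors were used. Columns of the authors' own comparisons (log2 fold changes, p-values) and size-factor-scaled values were not used. The authors called ATAC-seq peaks with MACS2 2.1.1 after mapping with BWA 0.7.10, merging the libraries of a group, and deposited a score per peak. Neither a shift of read ends nor removal of duplicates is named.

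The tables (11161 genes each, with identical D counts) were joined by ID. Genes were kept by filterByExpr, scaled by TMM and tested with edgeR 4.0.16 (quasi-likelihood, Benjamini-Hochberg), with D and P, D and L, or all 9 libraries in a fit. Calls needed a fold change over 1.2 besides an adjusted p up to 0.05, the study's own limits. SE was taken from the unshrunken log2 fold change and the F statistic, and so adds nothing to the p. DESeq2 1.42.0, R 4.3.3, Python 3.11.15, pandas 2.3.3, numpy 2.4.6 and matplotlib 3.10.9 were also used. Log2 CPM used a prior count of 2. Scripts were first tested on simulated counts. Members and lists were chosen with earlier results of these data known. Named genes are citC, the oxidoreductases, GAPDH and the U genes next to citC in order. Also named are the 2 IDs with the highest and the 2 with the lowest r to citC. Others were named after their values were seen.

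Deviations from group means, over genes, of same-numbered L and P libraries had r = 0.137, 0.512 and 0.314 for replicates 1, 2 and 3, all over 0.1, and same-numbered pairs with D ran from -0.389 to 0.270. Some libraries of different number were closer, such as L replicate 1 with P replicate 3 (r = 0.369) and L replicate 2 with D replicate 3 (r = 0.577). The main fit took no account of replicate numbers. Alternative fits used them as a block, on the ground of that limit alone. No label says what the numbers share, so the pairing is uncertain.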

Additional observations from a re-analysis of the deposited data

How the results depend on the processing

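The log2 fold changes of citC in P vs. D, L vs. D and P vs. L and its group means kept their direction under every alternative run. In P vs. L the value was 3.50 with DESeq2, which alone among the other tools and scalings called it, 3.63 with replicate number as a block over all 9 libraries (adjusted p = 0.153 from edgeR), 3.47 with that block in L and P only (adjusted p = 0.168) and 3.01 to 3.90 with each library left out, where only the fit without P replicate 2 called it. Without replicate 2 of both L and P, left out after their GAPDH levels were seen, it was 4.10 (adjusted p = 0.05001). The number of genes called higher and lower in P vs. L was 153 and 168 by DESeq2, 1 and 0 with the block, 0 and 0 in L and P only, with or without the block, 13 and 6 without replicate 2 of L and P, and 0 to 40 and 0 to 19 with each library left out, with 40 and 12 without P replicate 2, 1 and 19 without L replicate 2, and 0 and 0 without L replicate 1, L replicate 3 or any D library. With library totals 6 genes were called lower, and with at least 10 CPM in 3 libraries 0 were. Of the oxidoreductases DESeq2 called 1 higher and 2 lower, and leaving out a library gave 0 to 1 each, with 1 lower without L replicate 2. Of the U genes DESeq2 called 2 higher, and leaving out a library gave 0 to 2. The cause was not tested. With a score of at least 5, 1 gained list, that of P vs. D, still held a peak at the place of the citC peak. That limit is above the median of the gained peaks of L vs. D (3.77) and below that of P vs. D (31.1). With it, 3 lost peaks of P vs. D remained within 100 kb. Within 20 kb there were 3 gained and 4 lost peaks of P vs. D. The fits in L and P only with a block, and those without replicate 2 of both, were chosen after seeing the data.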
